A study of Mus musculus with 35 samples.

Results

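The 10 genes described here make or handle pulmonary surfactant in alveolar type 2 cells of the mouse lung. They are Sftpa1, Sftpb, Sftpc, Sftpd, Abca3, Lamp3, Napsa, Slc34a2, Lpcat1 and Etv5, a set named for its known role and found by gene symbol among the 54532 genes of the count table. RNA of whole lungs was sequenced from 34 adult mice at least 3 months old, in 12 groups that combined 3 genotypes, both sexes and 6 weeks in room air (normoxia) or in 10% oxygen (hypoxia). Control mice were wild type B6/129SJ2, and Cav1-KO mice were of the genotype that the labels write as Cav1(tm1Mls/)J, a knockout of caveolin-1 in every cell type. Cav1-RC mice had the same knockout with Cav1 put back in endothelial cells alone, so by design their epithelium lacks it like that of Cav1-KO. The promoter that drives Cav1 in these mice was not given in the sources used here. In each group 3 mice were sequenced, except for 2 in female Cav1-KO normoxia and 2 in female Cav1-RC normoxia.

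Alveolar type 2 cells are cuboidal epithelial cells that make surfactant, the film of lipid and protein that lowers surface tension so that alveoli do not collapse at the end of a breath. The lipid is packed into lamellar bodies and secreted together with the small hydrophobic proteins SP-B and SP-C, which spread it at the air-liquid surface. SP-A and SP-D are collectins, soluble lectins that bind microbes and, in the case of SP-A, take part in forming tubular myelin. The same cells are progenitors of the flat alveolar type 1 cells, and Nkx2-1, Foxa2 and ETS factors such as Etv5 are known regulators of their genes. In RNA of whole lung, fewer cells of a type and less RNA per cell cannot be told apart, and this holds for every level below.

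Of the secreted proteins, Sftpa1 (SP-A; chr14:41131782-41136452, plus strand) and Sftpd (SP-D; chr14:41172214-41185149, minus strand) are neighbours in mm10, with 35762 bases between them, and Sftpc (SP-C; chr14:70520949-70524081, minus strand) lies on the same chromosome. Sftpb (SP-B) is at chr6:72304610-72314371 on the plus strand. Among the genes for packing and processing, Abca3, the lipid pump of the lamellar body membrane, is at chr17:24351950-24410201 (plus). Lamp3, a lamellar body membrane glycoprotein, is at chr16:19653378-19706375 (minus), and Napsa, an aspartic protease that cleaves the SP-B precursor, is at chr7:44572380-44586862 (plus). Slc34a2, the sodium-phosphate cotransporter that takes up phosphate freed in surfactant turnover, is at chr5:53038081-53071664 (plus). Lpcat1, the acyltransferase that makes dipalmitoyl phosphatidylcholine, is at chr13:73467197-73516422 (plus), and Etv5, the transcription factor, is at chr16:22381309-22439719 (minus). All 10 are protein-coding, and the counts cover their exons.

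The RefSeq promoter table of GRCm38.p6 held entries for 7 of the 10 genes, all but Sftpc, Sftpd and Napsa. The 250 bases before the start are shown for the pair of surfactant protein genes with an entry and for the pair of genes whose levels ranged most between libraries. Capitals mark CTCAAG, the core of the NKX2-1 motif, which was searched on both strands.
Sftpb, chr6:72304360-72304609, plus strand: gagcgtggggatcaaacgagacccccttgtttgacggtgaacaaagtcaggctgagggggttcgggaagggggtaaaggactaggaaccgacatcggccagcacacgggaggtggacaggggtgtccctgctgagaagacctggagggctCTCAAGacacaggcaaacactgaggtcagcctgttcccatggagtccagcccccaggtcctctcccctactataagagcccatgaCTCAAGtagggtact
Sftpa1, chr14:41131538-41131787, plus strand: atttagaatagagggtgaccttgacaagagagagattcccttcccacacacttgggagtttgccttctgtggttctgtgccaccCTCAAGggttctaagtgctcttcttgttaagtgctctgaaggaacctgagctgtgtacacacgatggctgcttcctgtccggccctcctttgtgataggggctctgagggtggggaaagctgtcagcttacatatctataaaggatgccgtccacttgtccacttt
Slc34a2, chr5:53049103-53049352, plus strand: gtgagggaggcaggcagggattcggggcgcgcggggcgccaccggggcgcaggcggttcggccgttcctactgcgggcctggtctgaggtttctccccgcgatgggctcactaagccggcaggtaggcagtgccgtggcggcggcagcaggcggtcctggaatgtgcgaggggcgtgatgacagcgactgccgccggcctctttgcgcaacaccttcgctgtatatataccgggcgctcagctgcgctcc
Abca3, chr17:24351773-24352022, plus strand: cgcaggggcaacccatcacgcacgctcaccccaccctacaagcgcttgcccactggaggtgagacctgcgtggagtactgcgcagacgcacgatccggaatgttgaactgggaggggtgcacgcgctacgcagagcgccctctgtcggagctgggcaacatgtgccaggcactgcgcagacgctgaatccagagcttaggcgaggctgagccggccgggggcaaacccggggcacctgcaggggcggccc
The Sftpb window held 2 matches and that of Sftpa1 held 1, while the Slc34a2 and Abca3 windows held none. Among all 32851 promoters of that length in the table, 13.3% held the motif. A forkhead core, TGTTTAC, was found before Lamp3 and Etv5 and in 3.17% of all promoters, and an ETS core, GGAAGT, before the start of 1 Etv5 transcript and in 19.7% of all promoters. These matches are letters in a window and are not sites of measured binding. For Sftpa1, Abca3 and Slc34a2 the RefSeq start lay inside the interval of the deposited gene.

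Depth ranged between 12425535 and 33343006 counts on genes in a library, and 1.42 to 3.42% of these (median 2.34%) fell on the 10 surfactant genes. Cav1 had 989 to 1356 CPM (counts scaled to library size with TMM factors) in Control and 1.61 to 3.997 CPM in Cav1-KO. The libraries labelled Cav1-RC had 1.48 to 6.56 CPM, which overlaps Cav1-KO, so Cav1 counts do not check this label. Xist and the Y-linked genes Ddx3y, Eif2s3y, Kdm5d and Uty went against the labelled sex in 3 libraries. These were male Cav1-RC normoxia replicates 1 and 2 and male Control hypoxia replicate 2, with 752, 874 and 760 CPM of Xist. Female Cav1-KO hypoxia replicate 2 had Xist at a female level (714 CPM), but its Y-linked genes summed to 6.94% of the male mean. Members that gained or lost the threshold without these 4 libraries in doubt are named beside the comparison they belong to. The study's source data for western blots list 12 of these 34 animals. They are every library of male Control hypoxia and of Cav1-KO hypoxia in either sex, and replicate 1 of female Control normoxia, of female Control hypoxia and of female Cav1-RC normoxia. These 12 libraries are called listed below. Mitochondrial genes took 3.36 to 5.33% of their counts against 1.22 to 2.65% in the other 22, and the club cell gene Scgb1a1 took 3.23 to 6.80% against 1.31 to 4.60%. For several comparisons being listed and the condition cannot be told apart, so many results are also given from a fit with a term for the list. That term rests on the 3 groups that mix 3 listed with 5 other libraries. It takes the shift of listing to be the same in every group, which those groups can check only in part.

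Levels between genes are compared in FPKM (fragments per kilobase of exon and library size), a scale that corrects for gene length. Sftpc stood far above the rest with a median of 13310 FPKM over the 34 libraries (8424 to 20710.4), the rank 2 of all genes by mean FPKM. Sftpb followed with a median of 1471 (800.3 to 2892) and Sftpa1 with 892 (431 to 1639.5). Slc34a2 (median 253, 69.5 to 572) and Sftpd (241, 122 to 369.8) came next, and Slc34a2 exceeded Sftpd in 19 of 34 libraries, so the order of this pair is not set beyond their spread. Lamp3 (119, 57.5 to 228.8) exceeded Lpcat1 (98.0, 85.6 to 177) in 23 of 34 libraries. Napsa had a median of 79.8 FPKM (43.5 to 135). At the low end, Abca3 (43.4, 15.4 to 106) exceeded Etv5 (36.6, 14.8 to 77.1) in 22 of 34. Each of the other neighbours in this order kept its place in 32 to 34 libraries. Every member passed the filter on low counts, and the lowest count of any member in any library was 997, for Etv5.

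The genes differed in how far they ranged between libraries. The highest library exceeded the lowest 8.23-fold for Slc34a2, 6.89-fold for Abca3 and 5.21-fold for Etv5, whereas Sftpc ranged over 2.46-fold and Lpcat1 over 2.07-fold. Slc34a2 was below all 22 other libraries in each of the 12 listed libraries. Sftpb and Etv5 were below all others in 11 of the 12 and Lamp3 in 10, Sftpc in 2 and Lpcat1 in 1. Within the listed libraries the range of Slc34a2 was 2.12-fold and within the others 3.27-fold, and for Abca3 these ranges were 1.92 and 4.42.

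**Figure D1:**
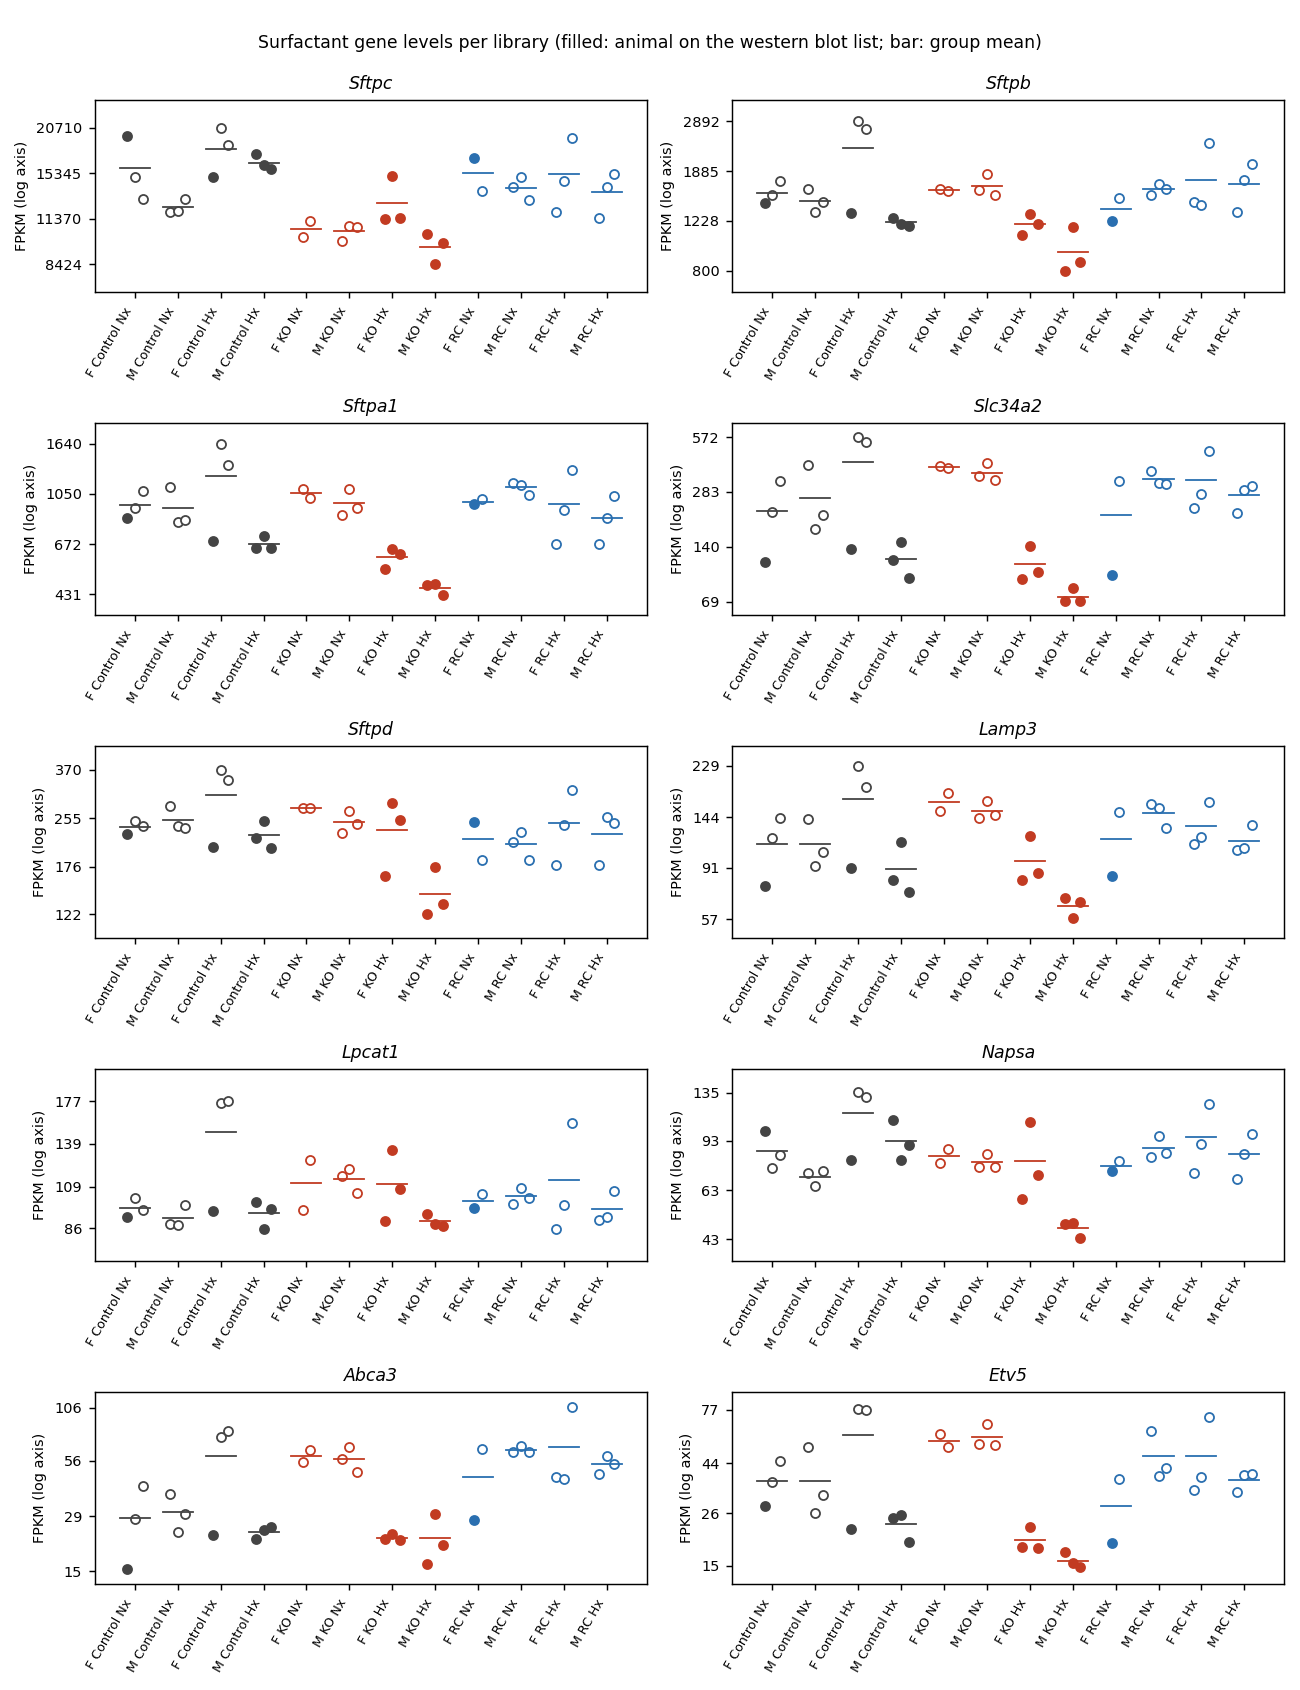
FPKM of each of the 10 genes on a log axis for every library, in columns by group, with filled points for libraries on the western blot list, open points for the others and a bar at the group mean. Filled points sit low for Slc34a2, Abca3, Etv5 and Lamp3, with Slc34a2 below every open point in all 12 listed libraries, and mix with open points for Sftpc and Lpcat1.

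The levels of most members were correlated over libraries. Over the 22 unlisted libraries the 45 pairs of members had a median Pearson r of 0.747 in log2 CPM (0.313 to 0.951), and over the 12 listed libraries the median was 0.645 (-0.250 to 0.888). Abca3 stood apart in the listed libraries, where its r with the other members ran from -0.250 (Etv5) to 0.364 (Sftpd). The protein-coding genes most like the mean scaled level of the members over all 34 libraries, of 15644 compared, were Atxn10 (r = 0.949), Egfl6 (0.934), Fasn (0.934), Lyz2 (0.925) and Pld3 (0.924). Fasn is fatty acid synthase, Egfl6 is a secreted protein of type 2 cells, and Lyz2 is lysozyme, made by type 2 cells and macrophages. Within the unlisted libraries alone r was 0.952 for Atxn10 and 0.925 for Fasn, and within the listed ones 0.811 and 0.873. These correlations are descriptions, since the points share groups, depth and the split between listed and other libraries.

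Within the groups that mix both kinds, the lamellar body and transport genes were lower in listed animals. In female Control normoxia Slc34a2 had 115 FPKM in the listed library and 219.6 and 325 in the others. In female Control hypoxia it had 135 against 572 and 539.7, and in female Cav1-RC normoxia 96.96 against 323.3. Each listed library was thus below the other libraries of its own group. In the fit over 34 libraries (edgeR quasi-likelihood, Benjamini-Hochberg) the log2 difference of listed from other libraries was -1.64 ± 0.26 (SE) for Slc34a2, adjusted p = 1.8e-05. It was -1.37 for Abca3, -1.06 for Etv5, -0.93 for Lamp3, -0.51 for Sftpb and -0.47 for Sftpa1 (adjusted p of edgeR 4.44e-05, 0.000998, 0.000128, 0.025 and 0.0462). In all 6 members were lower by this test, where 22.2% of all genes were lower and 23.6% higher. Sftpc (0.16, adjusted p = 0.467 with edgeR), Sftpd (-0.19), Napsa (-0.14) and Lpcat1 (-0.36) did not pass. For Sftpc the shift was not the same in each mixed group, so its term averages opposite directions. The listed library was the highest in female Control normoxia (19548 FPKM against 14979 and 12982.5). In female Cav1-RC normoxia it was above the other (17007 against 13638.2). In female Control hypoxia it was the lowest (14989.6 against 20710.4 and 18413.8). The members' median was -0.49 on the log2 scale against 0.03 over all genes. Without female Control hypoxia replicate 1 the count was 4, without female Control normoxia replicate 1 it was 7, and without female Cav1-RC normoxia replicate 1 it stayed at 6, where 18.9%, 19.5% and 18.4% of all genes were lower. The same term moved with transcript length, with a median of 0.47 for genes under 1500 exonic bases and -0.23 for genes of 5000 or more, and within its own length class Slc34a2 had 2.23% of genes lower than itself, and Abca3 3.80%.

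**Figure D2:**
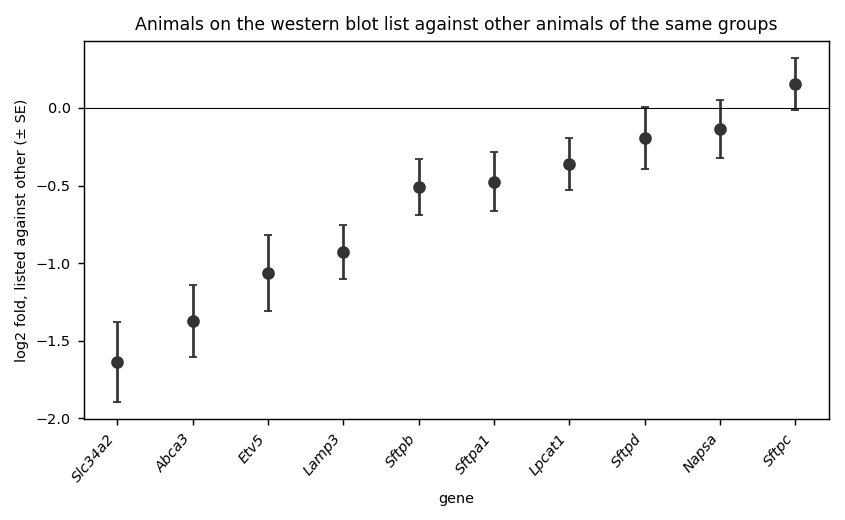
Log2 difference of listed from other libraries of the same group for each member, with points for the estimate and bars for its standard error, from the fit over 34 libraries. Slc34a2 (-1.64), Abca3 (-1.37), Etv5 (-1.06) and Lamp3 (-0.93) lie farthest below 0, and Sftpc (0.16) lies above it.

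The first question was whether lungs without Cav1 differed from Control after hypoxia. They did for most surfactant genes: averaged over the sexes, 9 of 10 were lower in Cav1-KO than in Control, with log2 differences from -1.31 to -0.53, and only Lpcat1 (-0.26 ± 0.14, adjusted p = 0.175, edgeR) did not pass. By the same test 12.5% of all genes were lower. The members' median log2 difference was -0.72, against 0.00 over all genes. Etv5 and Slc34a2 also passed the study's fold threshold, an absolute log2 fold change above 1, which with an adjusted p under 0.05 is met by 5.36% of all genes. Without female Control hypoxia replicate 2 or 3 that count was 1, with 3.77% and 3.85% of all genes.

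Among the secreted proteins, Sftpa1 had 468, 475 and 431 FPKM in male Cav1-KO hypoxia and 648, 726 and 648 in male Control hypoxia. In females it had 539.8, 647 and 615 in Cav1-KO and 694, 1639.5 and 1360.5 in Control. In both sexes every Cav1-KO library was below every Control library, and the lowest female Control value came from the listed one. The log2 difference averaged over the sexes was -0.81 ± 0.16 (adjusted p = 0.0013, edgeR). Sftpc had 10261, 8424 and 9694 FPKM in male Cav1-KO and 17395, 16212 and 15778 in male Control, which do not overlap. Female Cav1-KO had 11336, 15033 and 11456 against 14989.6, 20710.4 and 18414, so the groups touch in FPKM at 1 library each. For Sftpc the averaged difference was -0.67 ± 0.14 (adjusted p = 0.00141, edgeR). Sftpb differed by -0.66 ± 0.16 and Sftpd by -0.53 ± 0.16, with adjusted p of 0.00505 and 0.0175 in edgeR. Sftpb ranged from 800.3 to 1163 FPKM in male Cav1-KO and from 1176 to 1262 in male Control, which lie close but apart.

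Of the genes for processing and lamellar bodies, Napsa had the smallest adjusted p. Its levels were 48.4, 48.9 and 43.5 FPKM in male Cav1-KO and 109, 79.7 and 89.8 in male Control. In females they were 58.7, 107 and 70.9 in Cav1-KO and 79.9, 135 and 131 in Control. The males were apart, and in females Cav1-KO replicate 2, which carried Y-linked reads, reached into the Control range. The averaged difference of Napsa was -0.78 ± 0.15 (adjusted p = 0.00066, edgeR). Slc34a2 had 69.5, 81.7 and 69.6 FPKM in male Cav1-KO against 118, 148 and 93.3 in male Control. Female Cav1-KO had 92.5, 141 and 100.5 and female Control 135, 572 and 539.7, so these groups overlap at the listed Control library, and the other 2 Control libraries are far above. The difference for Slc34a2 was -1.31 ± 0.30 (adjusted p = 0.0037). Abca3 (-0.76 ± 0.26, adjusted p = 0.0377) and Lamp3 (-0.66 ± 0.19, adjusted p = 0.0156) also passed in edgeR, but Abca3 overlapped in males (16.4 to 29.6 FPKM in Cav1-KO, 22.1 to 25.5 in Control). Etv5 had 17.3, 15.4 and 14.8 FPKM in male Cav1-KO and 24.7, 25.4 and 19.2 in male Control. In females it had 18.3, 22.5 and 18.1 against 22.1, 77.1 and 77.0. Its difference was -1.07 ± 0.24 (adjusted p = 0.00293, edgeR), and only the female groups touched.

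When the list term was added 6 members were lower, where 8.42% of all genes were. They were Sftpc (-0.73), Napsa (-0.72), Slc34a2 (-0.64), Etv5 (-0.63), Sftpa1 (-0.62) and Sftpb (-0.47), with adjusted p between 0.00113 and 0.0388 in edgeR. Sftpd (-0.45), Lamp3 (-0.30), Abca3 (-0.21) and Lpcat1 (-0.12) did not pass. Leaving out female Cav1-RC normoxia replicate 1 or female Control normoxia replicate 1, which carry the term, took this count to 3, where 6.38% and 5.59% of all genes were lower, and leaving out female Control hypoxia replicate 1 took it to 7, where 11.2% were. The 3 members lost were Slc34a2, Etv5 and Sftpb, at -0.63, -0.60 and -0.41 without the first library (adjusted p of edgeR 0.0511, 0.0608 and 0.0789) and -0.53, -0.48 and -0.37 without the second. Without the 4 libraries in doubt over sex, and without the term, 7 were lower, where 5.59% of all genes were, and Abca3 and Lamp3 were the ones lost.

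The male hypoxic groups give the comparison within the listed animals, since all 6 libraries are listed. Taken pair by pair with the study's thresholds, Napsa was called in males (-1.01 ± 0.14, adjusted p = 0.0195, edgeR), where 0.929% of all genes were called. Counted on TMM-scaled CPM, 8 of 10 members had every male Cav1-KO library below every Control library, all but Abca3 and Lpcat1, against 12.8% of all genes. Sftpc (-0.82), Sftpa1 (-0.58), Etv5 (-0.56), Slc34a2 (-0.72) and Sftpd (-0.67) had adjusted p of 0.0562 to 0.0895 in edgeR and did not pass, and 7 members had an unadjusted p under 0.05. In this comparison 0.974% of all genes were lower at an adjusted p under 0.05. The call for Napsa was lost without replicate 1 or 3 of either group, with differences from -1.03 to -0.87, and stayed without male Control hypoxia replicate 2, a library in doubt over sex (-1.10). DESeq2's Wald test gave Napsa -0.9998 (adjusted p = 1.06e-08), short of the fold threshold, so it called no member, and 6 members were lower by its adjusted p alone, where 3.84% of all genes were. In females no member was called, with 0.768% of all genes called, although 6 had an unadjusted p under 0.05 and DESeq2's Wald test called 4, with 8.6% of all genes. The female estimates reached -1.90 ± 0.52 for Slc34a2 (adjusted p = 0.0925, edgeR), and 3 members, Sftpa1, Sftpb and Sftpc, did not overlap in CPM where 16.2% of all genes were lower without overlap. Without female Control hypoxia replicate 1, the listed library, edgeR called 6, and 23.9% of all genes. The test of female minus male found no member that differed in this contrast at an adjusted p under 0.05, where 0.186% of all genes did, with 2 members at an unadjusted p under 0.05. Without female Control hypoxia replicate 1, however, 4 members differed between the sexes by that test, as did 19.9% of all genes.

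**Figure D3:**
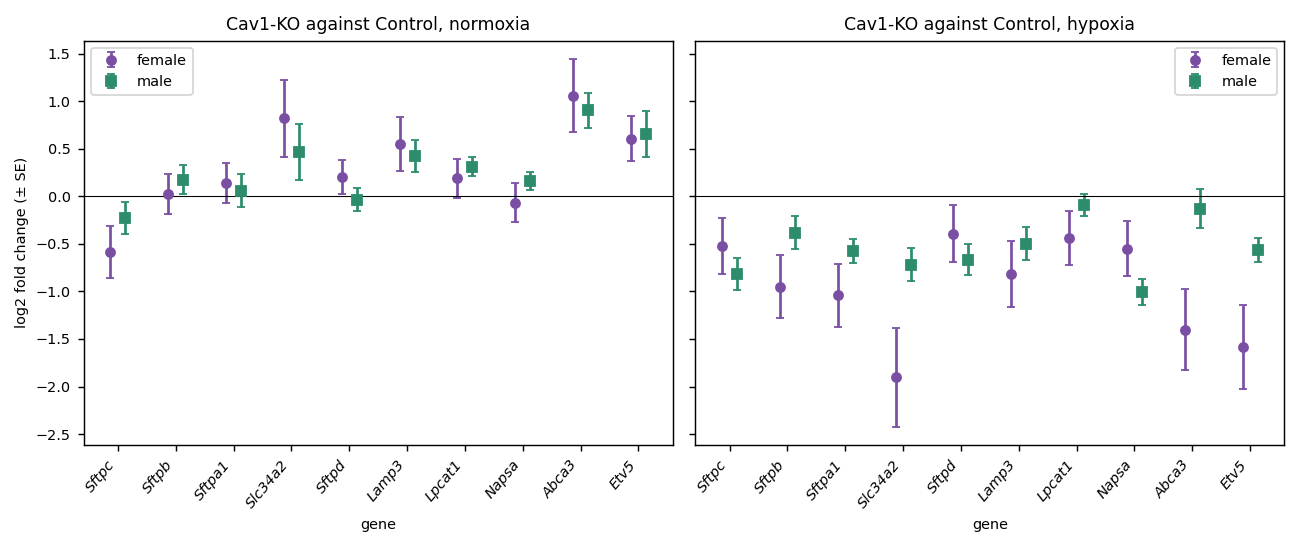
Log2 fold change of Cav1-KO against Control for each member, with its standard error as bars, in normoxia and hypoxia panels, circles for females and squares for males. In hypoxia all estimates of both sexes lie below 0, from -1.90 for female Slc34a2 to -0.09 for male Lpcat1, while in normoxia Abca3 lies highest in both sexes.

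In normoxia, where only 1 of the 11 Control and Cav1-KO libraries is listed, 1 of the 10 surfactant genes passed the test averaged over the sexes and none was lower by it. Abca3 was higher, with 57.1, 66.0 and 49.0 FPKM in male Cav1-KO and 37.6, 24.0 and 29.9 in male Control. Female Cav1-KO had 55.3 and 63.6 against 15.4, 28.2 and 41.7, the lowest of which is the listed library. No Cav1-KO library of either sex overlapped its Control group, as held for 17.2% of all genes in males and 17% in females in this direction. The difference averaged over the sexes was 1.01 ± 0.28 (adjusted p = 0.0142, edgeR), and Abca3 was the 1 member past both thresholds, where 5.7% of all genes were called and 7.07% were higher by adjusted p alone. Its fold lay so near the fold threshold that the call was lost without any 1 of 17 libraries. With the list term it was 0.82 ± 0.19 (adjusted p = 0.00301, edgeR), and without the libraries in doubt over sex 0.99 (adjusted p = 0.0331, edgeR). Within males Abca3 differed by 0.91 ± 0.18 (adjusted p = 0.0195, edgeR; 11.4% of all genes passed in either direction), and within females by 1.06 ± 0.38 (adjusted p = 0.367, edgeR; 0.122% of all genes were called, no member, and 2 members had an unadjusted p under 0.05). Etv5 (0.66, adjusted p = 0.0763) and Lamp3 (0.51, adjusted p = 0.0837) in edgeR pointed up without passing, and so did Slc34a2 (0.67 ± 0.32, adjusted p = 0.148, edgeR). Sftpc pointed the other way. Its levels were 9819, 10822 and 10776 FPKM in male Cav1-KO and 11887, 11979.9 and 12963 in male Control, and 10096 and 11214 in female Cav1-KO against 19548, 14979 and 12982. Although neither sex overlapped, as for 17.2% and 17.8% of all genes in this direction in males and females, its averaged difference of -0.38 did not pass (adjusted p = 0.0763, edgeR).

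The difference between Cav1-KO and Control differed between the oxygen levels for most members. The hypoxia estimate minus the normoxia estimate was below 0 and passed for 8 of 10 genes, where 13.2% of all genes did so. Slc34a2 had the largest difference at -1.98 ± 0.44, followed by Abca3 (-1.77 ± 0.38) and Etv5 (-1.73 ± 0.35), of which Etv5 had the smallest adjusted p (0.00363, edgeR). Sftpc and Lpcat1 were the members that did not pass. Under the list term 3 stayed below 0 past the threshold, where 2.95% of all genes were. They were Abca3 (-1.04), Etv5 (-1.11) and Slc34a2 (-1.08), with adjusted p of 0.0342, 0.0357 and 0.0417 in edgeR. Without the libraries in doubt over sex, and without the term, the count was 6, where 6.17% of all genes passed in that direction, and Sftpb and Sftpd were lost.

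The next question was how lungs of the libraries labelled Cav1-RC compared with Cav1-KO. In hypoxia 8 members were higher in Cav1-RC, where 23.8% of all genes were, and 3 passed both thresholds, as did 15.3% of all genes. These comparisons share the Cav1-KO libraries with those above. Slc34a2 had 216, 290.0 and 304 FPKM in male Cav1-RC and 231, 274 and 479.8 in female Cav1-RC, all above the Cav1-KO values of 69.5 to 141. Its difference was 1.70 ± 0.31 (adjusted p = 0.000122, edgeR). Abca3 had 48.0, 59.3 and 53.8 FPKM in male and 46.1, 45.0 and 106 in female Cav1-RC against 16.4 to 29.6 in Cav1-KO, a difference of 1.40 ± 0.27 (adjusted p = 0.000201, edgeR). Etv5 had 32.5, 39.0 and 39.2 FPKM in male and 33.3, 38.1 and 71.2 in female Cav1-RC against 14.8 to 22.5 in Cav1-KO, a difference of 1.23 ± 0.24 (adjusted p = 0.000262, edgeR). For these 3 genes no library overlapped. In CPM and within a sex 5 members in females and 8 in males were higher without overlap, where 21.7% and 27.4% of all genes were. Sftpa1 (0.77), Sftpb (0.68), Lamp3 (0.64), Napsa (0.54) and Sftpc (0.38) passed on adjusted p, and Sftpd (0.35, adjusted p = 0.0618, edgeR) and Lpcat1 (0.05) did not. Without the libraries in doubt over sex Sftpd passed too (0.45, adjusted p = 0.0343, edgeR), which made 9 higher where 20.9% of all genes were. However, all 6 hypoxic Cav1-KO libraries are listed and no hypoxic Cav1-RC library is, so genotype and listing cannot be told apart here. With the list term no member passed in edgeR, where 3.72% of all genes were higher. Then 1 had an unadjusted p under 0.05, Slc34a2 and Abca3 were at 0.07 and 0.03, Lamp3 at -0.29, and Sftpc had the widest difference at 0.54 ± 0.21 (adjusted p = 0.112, edgeR).

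Within each sex the same 3 genes were called in hypoxia with all libraries. In females Slc34a2 differed by 1.55 ± 0.31, Abca3 by 1.54 ± 0.33 and Etv5 by 1.26 ± 0.28 (adjusted p of edgeR 0.0129, 0.0153 and 0.017), where 8.98% of all genes were called. In males the differences were 1.86 ± 0.17, 1.26 ± 0.21 and 1.20 ± 0.11, where 14.8% were called. By adjusted p alone 8 members were higher in males, with 44.5% of all genes past that threshold in either direction. Without female Cav1-KO hypoxia replicate 1 no member was called in females, where 4.95% of all genes were, and Slc34a2 was at 1.42, Abca3 at 1.52 and Etv5 at 1.21 (adjusted p of edgeR 0.0587, 0.0597 and 0.0662). Without replicate 2, which carried Y-linked reads, Slc34a2 was still called there, as were 4.6% of all genes, while Abca3 (1.59, adjusted p = 0.0594, edgeR) and Etv5 (1.38, adjusted p = 0.0522, edgeR) were not. Etv5 was also not called without Cav1-KO replicate 3 (1.21, adjusted p = 0.0525, edgeR) or Cav1-RC replicate 3 (0.85, adjusted p = 0.0109, edgeR). In normoxia the sexes averaged gave no call in edgeR (3.26% of all genes called), with 2 members at an unadjusted p under 0.05. Sftpc was the member closest to the threshold (0.46, adjusted p = 0.0803, edgeR). In males it had 14006, 14988 and 12898 FPKM in Cav1-RC, all above the 9819 to 10822 in Cav1-KO, and passed on adjusted p alone (0.42 ± 0.09, adjusted p = 0.01, edgeR), as 12.5% of all genes did. Replicates 1 and 2 of male Cav1-RC normoxia are those with Xist at female levels. Without them 1 Cav1-RC library was left, which the fit takes to vary like the Cav1-KO ones, and Sftpc was at 0.30 (adjusted p = 0.03, edgeR). Sftpd (-0.42, adjusted p = 0.0137, edgeR) and Etv5 (-0.46, adjusted p = 0.0193, edgeR) then passed as lower, where 5.08% of all genes were lower and 6.61% higher. The Cav1-RC minus Cav1-KO difference was larger in hypoxia than in normoxia for 7 members (16.4% of all genes), most of all for Slc34a2 (2.23) and Etv5 (1.89, adjusted p = 0.00137, edgeR). The count was again 7 without the libraries in doubt (8.67% of all genes), with Napsa in place of Sftpa1. None of these passed in edgeR with the list term, where 0.00503% of all genes did and no member had an unadjusted p under 0.05. In female normoxia edgeR and DESeq2's Wald test called no member (0.1% of all genes in edgeR and 2.11% in DESeq2), with 1 unadjusted p under 0.05 in edgeR. Without female Cav1-RC normoxia replicate 2, which leaves the listed replicate 1 alone, Slc34a2 was at -1.999, Etv5 at -1.55 and Abca3 at -1.09. That fit takes its spread from the Cav1-KO libraries alone.

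Against Control, the libraries labelled Cav1-RC differed in few surfactant genes. Averaged over the sexes no member was called by edgeR in normoxia (2.72% of all genes called, and 2.98% higher and 2.21% lower by adjusted p alone) or in hypoxia (5.2%), with 1 and 2 members at an unadjusted p under 0.05. Abca3 was nearest in both, at 0.89 ± 0.28 in normoxia (adjusted p = 0.0606, edgeR) and 0.64 in hypoxia (adjusted p = 0.0994, edgeR). Abca3 was higher in normoxia with the list term, at 0.99 ± 0.18 (adjusted p = 0.000587, edgeR), where 6.49% of all genes were. In male normoxia Abca3 had 62.1, 67.2 and 62.5 FPKM in Cav1-RC against 24.0 to 37.6 in Control, without overlap, as for 13.7% of all genes in this direction. It was called there (1.06 ± 0.16, adjusted p = 0.0125, edgeR), where 2.45% of all genes were called. Xist was at female levels in 2 of these 3 Cav1-RC libraries, and without them 1 Cav1-RC library was left. Abca3 then differed by 1.04 (adjusted p = 0.439, edgeR) and was not called, with 0.212% of all genes called. Nor was it called without any 1 of the Cav1-RC libraries (1.03 to 1.08) or Control replicate 2 (0.92). In male hypoxia Slc34a2 (1.16 ± 0.20) and Abca3 (1.15 ± 0.12) were called, as were 9.9% of all genes, and Etv5 (0.66 ± 0.13) passed on adjusted p, as 37% did in either direction. Without Control replicate 2, which had Xist at a female level, Lamp3 (0.58, adjusted p = 0.00843, edgeR) passed as well, where 21.1% of all genes were higher. In that comparison every Control library is listed and no Cav1-RC library is. The estimates of these 3 genes were below 0 with the list term, at -0.49, -0.24 and -0.42. In females edgeR and DESeq2's Wald test called no member in normoxia (0.137% of all genes in edgeR, 1.04% in DESeq2) or in hypoxia (0.832% and 2.55%), and none had an unadjusted p under 0.05. Among unlisted libraries alone, every estimate in female hypoxia was below 0, from -0.73 (Slc34a2) to -0.20 (Abca3). None passed there, and Lamp3 had the smallest adjusted p (0.218, edgeR). The Cav1-RC minus Control difference was not shown to change with oxygen for any member without the term (no unadjusted p under 0.05, 0.433% of all genes lower), while with it Abca3 (-1.18) and Lamp3 (-0.90) passed in edgeR at an adjusted p of 0.0165 each, as did 6.8% of all genes in that direction. In hypoxia Lamp3 was lower in Cav1-RC with the term (-0.59 ± 0.17, adjusted p = 0.0336, edgeR), as were 4.49% of all genes.

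Hypoxia against normoxia was compared within each genotype. In Cav1-KO 8 members were lower in hypoxia, where 24.5% of all genes were, and 4 were past both thresholds, as were 16.5% of all genes. Slc34a2 had 345, 409.9 and 330.1 FPKM in male and 394 and 386 in female normoxic Cav1-KO, more than any of the 69.5 to 141 in hypoxia. Its log2 difference was -2.06 ± 0.32 (adjusted p = 3.4e-05, edgeR). Etv5 had 53.9, 65.9 and 53.4 FPKM in male and 59.4 and 52.0 in female normoxic Cav1-KO against 14.8 to 22.5 in hypoxia. It differed by -1.69 ± 0.25 (adjusted p = 2.36e-05, edgeR). Abca3 (-1.40) and Lamp3 (-1.02) were the other two past both thresholds, and Sftpa1 (-0.95), Sftpb (-0.62), Sftpd (-0.52) and Napsa (-0.41) passed on adjusted p. Sftpc (0.04) and Lpcat1 (-0.18) did not. All 6 hypoxic and none of the 5 normoxic Cav1-KO libraries are listed, so oxygen and listing cannot be told apart. With the list term no member passed in edgeR, 1 had an unadjusted p under 0.05, and 0.619% of all genes were lower. Etv5 was then the farthest from 0, at -0.63 ± 0.30 (adjusted p = 0.331, edgeR). In the pairs 3 members were called in females (13.3% of all genes) and 5 in males (17.7%), and by adjusted p alone 6 and 9 were lower, where 38.2% and 55.1% of all genes passed in either direction.

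In Control no member passed in edgeR when the sexes were averaged (3.2% of all genes higher), and 3 had an unadjusted p under 0.05, with Napsa at 0.44 (adjusted p = 0.0737, edgeR). Once the term was added 5 were higher in hypoxia, where 10.5% of all genes were. They were Abca3 (1.02 ± 0.20), Slc34a2 (0.66), Lamp3 (0.59), Lpcat1 (0.51) and Napsa (0.49), with adjusted p between 0.00143 and 0.0349 in edgeR. The female Control groups allow this comparison among unlisted libraries, with 2 in each group. There Abca3 had 74.3 and 79.8 FPKM in hypoxia and 28.2 and 41.7 in normoxia. Etv5 had 77.1 and 77.0 FPKM in hypoxia against 36.2 and 44.9. Sftpb had 2892 and 2699 FPKM against 1538 and 1731. All of these hypoxic values lie above the normoxic ones. Of the 10 members 7 were higher by adjusted p, where 5.85% of all genes were, and Abca3 (1.10 ± 0.21, adjusted p = 0.0162, edgeR) was the 1 member past both thresholds, where 8.47% were. Slc34a2 (0.99), Etv5 (0.89), Lpcat1 (0.80), Sftpb (0.74), Napsa (0.72) and Lamp3 (0.64) passed on adjusted p, and Sftpa1 (0.54), Sftpd (0.50) and Sftpc (0.45) did not. With all 3 libraries a group, the listed ones included, no member passed in females and none had an unadjusted p under 0.05 in edgeR, which called 0.0175% of all genes. DESeq2's Wald test called no member there. In Control males, where all hypoxic and no normoxic libraries are listed, Slc34a2 fell from 398, 175 and 209 FPKM in normoxia to 118, 148 and 93.3 in hypoxia. This was a call at -1.12 ± 0.32 (adjusted p = 0.0495, edgeR), where 6.36% of all genes were called. It was lost without hypoxia replicate 1 or 3 or normoxia replicate 1 or 3, with differences from -1.26 to -0.68, and without hypoxia replicate 2 Napsa passed on adjusted p as higher (0.53, adjusted p = 0.0439, edgeR; 9.56% of all genes higher). For Slc34a2, with the list term the estimate was 0.54.

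In Cav1-RC hypoxia gave no call over both sexes in edgeR, with no unadjusted p under 0.05 among the members and 1.23% of all genes called. Within a sex edgeR called none in females (0.0285% of all genes) or males (2.27%), with 0 and 3 members at an unadjusted p under 0.05. DESeq2's Wald test called none at both thresholds either, with 0 and 5 members at an unadjusted p under 0.05. In males its smallest adjusted p was 0.0382. Averaged over the sexes, the edgeR estimates ran from -0.21 ± 0.17 for Sftpa1 to 0.21 ± 0.17 for Sftpb. Slc34a2 had 216 to 304 FPKM in male hypoxia and 314 to 367 in male normoxia, which do not overlap, whereas in females 231 to 479.8 in hypoxia spanned the 96.96 and 323.3 of normoxia. The difference between the sexes was not past the threshold for any member in any of the 9 contrasts in edgeR with all 34 libraries. Without female Control hypoxia replicate 1 it was for 7 members in the hypoxia effect of Control, 6 in Cav1-RC against Control and 4 in Cav1-KO against Control in hypoxia, where 35.3%, 23.9% and 19.9% of all genes passed. Without female Control normoxia replicate 3 it was for 4 in the hypoxia effect of Control, with 25.5% of all genes. Without female Cav1-RC normoxia replicate 1 or 2 it was for 1 in that effect, with 6.98% and 6.97% of all genes. Without female Cav1-RC hypoxia replicate 3 it was for 1 there and 1 in Cav1-RC against Control in hypoxia, with 4.47% and 4.13%. With all libraries, in 6 of these 0% of all genes passed, and in the rest 0.186% (Cav1-KO against Control in hypoxia), 0.136% (Cav1-RC against Control in hypoxia) and 0.277% (hypoxia in Control). Members at an unadjusted p under 0.05 numbered 0 to 7. The closest was Slc34a2 in Control, whose hypoxia effect was 2.03 ± 0.60 higher in females than in males (adjusted p = 0.0585, edgeR), and 7 members had an unadjusted p under 0.05 in that contrast. In it all male and 1 of 3 female hypoxic libraries are listed, and with the list term no member had an unadjusted p under 0.05.

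**Figure D4:**
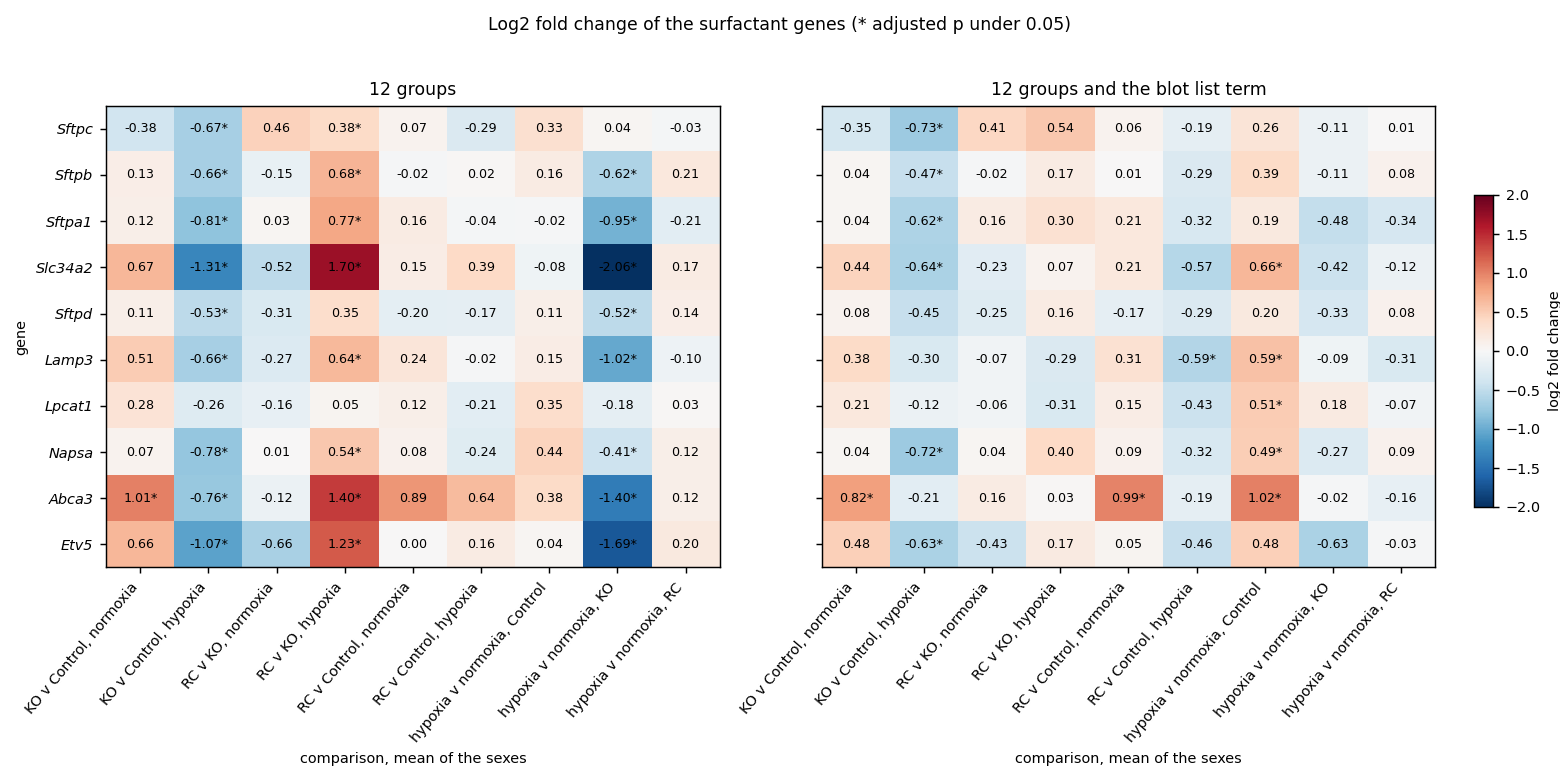
Heat maps of the log2 fold change of the 10 genes (rows) in the 9 comparisons averaged over the sexes (columns), without the western blot list term and with it, where an asterisk marks an adjusted p under 0.05. Cav1-KO against Control in hypoxia has 9 asterisks without the term and 6 with it, and Cav1-RC against Cav1-KO in hypoxia has 8 and none.

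Genes that act on surfactant outside the 10 were followed with lists, whose counts stand against 12.5% of all genes lower and 9.68% higher in hypoxic Cav1-KO, and 8.42% and 7.7% with the list term. Without the libraries in doubt over sex, and without the term, 5.59% of all genes were lower and 4.66% higher. Of 22 measured genes of surfactant lipid synthesis, 12 were lower and 1 higher in hypoxic Cav1-KO than in hypoxic Control (median log2 difference -0.53), and with the list term 8 were lower and none higher (-0.25). In the fit without the libraries in doubt 8 were lower and none higher. Fabp5, a fatty acid carrier, differed by -1.16 ± 0.19 (adjusted p = 0.000175, edgeR). Cds1, which makes CDP-diacylglycerol, differed by -0.68 ± 0.12, and Insig1, a sensor that holds back SREBP activation, by -0.73 ± 0.14. All 3 also passed with the term (-0.91, -0.66 and -0.45). Fasn differed by -1.62 ± 0.36 and with the term by -0.80 (adjusted p = 0.0388, edgeR). It was named above for its likeness to the members over these same libraries, so its direction here is not a separate result. Among 14 regulators of surfactant genes 5 were lower and 1 higher (median -0.10), and without the libraries in doubt 2 were lower and none higher. Fgfr2, the receptor for FGF7 and FGF10, differed by -0.65 ± 0.12, Scap, the SREBP escort, by -0.43 ± 0.10, and Nfatc3, a calcineurin-dependent factor, by -0.52 ± 0.15. With the term 2 were lower and 1 higher, and Nfatc3 (-0.23, adjusted p = 0.116, edgeR) no longer passed. Nkx2-1, named here for its motif and outside the rule for names, differed by 0.13 ± 0.11 (adjusted p = 0.401, edgeR).

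For processing, secretion and turnover, 2 of 12 genes were lower and 1 higher in the same comparison (median 0.03), where 12.5% and 9.68% of all genes were. With the term none was lower and 2 were higher, and without the libraries in doubt none was lower and 1 higher. Vamp2, a SNARE of vesicle fusion, was higher by 0.44 ± 0.08. Dmbt1, a mucosal protein that binds SP-D, differed by -3.12 ± 0.98 without the term, and with it the adjusted p was 0.092 in edgeR. Among 15 other markers of alveolar type 2 cells 5 were lower and none higher (median -0.33), 3 were lower with the term and 2 without the libraries in doubt. Chil1 differed by -1.87 ± 0.41, Egfl6 by -1.23 ± 0.28 and Cxcl15, a lung chemokine, by -0.48 ± 0.14. In the male groups, all listed, these 15 markers summed to 1021 to 1227 FPKM in Cav1-KO and 1499 to 1779 in Control, which do not overlap. In normoxia 5 of the 15 type 2 markers were higher and none lower in Cav1-KO (median 0.42, against -0.01 over all genes), where 7.07% of all genes were higher, and the other 10 did not pass. Without the libraries in doubt 4 were higher, with 4.74% of all genes. Rab27a, a GTPase of regulated secretion, differed by 0.46 ± 0.09, Lgi3 by 0.65 ± 0.15 and Hc, complement C5, by 0.78 ± 0.18. Pgc (1.06 ± 0.27) and Ctsh (0.57 ± 0.15), proteases of the SP-B pathway, were higher as well, with adjusted p of 0.00753 and 0.00866 in edgeR. In hypoxia against normoxia in Control, 1 of 22 lipid synthesis genes was higher and none lower without the list term, where 3.2% of all genes were higher and 2.86% lower. With the term 13 were higher and 2 lower, where 10.5% and 8.03% of all genes were, with Insig1 among those higher (0.55 ± 0.10, adjusted p = 0.000412, edgeR).

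**Figure D5:**
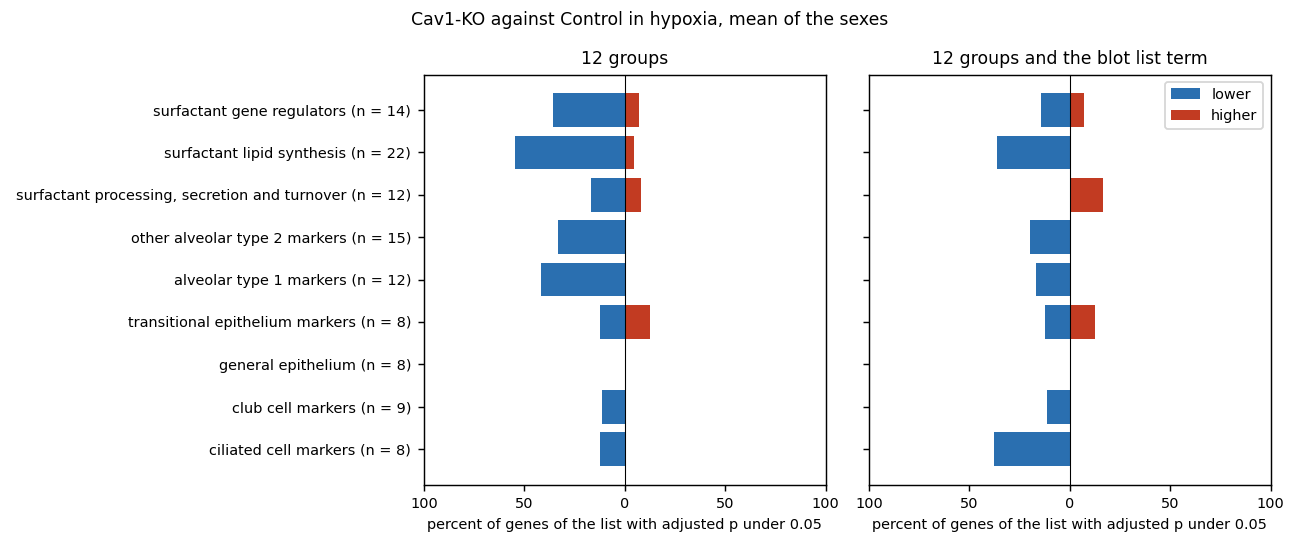
Percent of the measured genes of each list that were lower (left) or higher (right) in Cav1-KO than in Control under hypoxia at an adjusted p under 0.05, without and with the western blot list term, averaged over the sexes. Surfactant lipid synthesis has 12 of 22 genes lower without the term and 8 with it, and the general epithelium list has none in the fit without the term.

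Markers of other cells that moved in the same comparison are given beside these counts, and their part in the surfactant values was not tested. Of 12 alveolar type 1 markers 5 were lower and none higher (median -0.38), with Emp2, a tetraspan membrane protein, at -1.22 ± 0.29, and 2 were lower with the term and 2 without the libraries in doubt. None of the 8 general epithelial genes passed (median 0.04), and Krt18, a keratin, had the smallest adjusted p (0.29 ± 0.16, adjusted p = 0.194, edgeR). In males they summed to 442 to 495 FPKM in Cav1-KO and 458.5 to 474 in Control, which overlap. Club cell markers gave 1 lower of 9 (median 0.12). In males their sums were 102706 to 120161 FPKM in Cav1-KO and 71544 to 128990 in Control, which overlap. Red cell genes were higher, 4 of 5 (median 2.84, with 9.68% of all genes higher), and their sum reached 2062 to 27595 FPKM in male Cav1-KO against 221.6 to 837 in male Control. Smooth muscle markers gave 3 lower of 5 (median -0.67), led by Myh11 (-0.85 ± 0.14). Lamp3 also marks mature dendritic cells, whose other 4 markers gave 2 lower, Ccl22 (-1.64 ± 0.30) and Ccr7 (-0.79 ± 0.23). In normoxia, by contrast, 7 of 9 club cell and 8 of 8 ciliated cell markers were lower in Cav1-KO than in Control (medians -1.15 and -1.41), where 7.69% of all genes were lower, and none of the 10 surfactant genes passed as lower. The defining markers of alveolar type 2 cells were present in every library, with Sftpc at 8424 FPKM or more.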

How the data were processed

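RNA of whole lungs had been extracted with TRIzol, enriched for poly-A RNA and made into directional libraries. Per the study's methods, read pairs were mapped to mm10 with HISAT2 2.0.5 and counted per gene with featureCounts 1.5.0-p3 at default settings, which do not use strand. The spans of Abca3, Napsa and Slc34a2 overlap those of genes on the other strand, and the effect on their counts was not tested. Those neighbours had at most 225, 6 and 47 counts in a library, against at least 2775, 2051 and 6467 for the 3 genes. These counts do not show reads that were counted for neither gene. The authors deposited raw counts per gene, and the authors deposited FPKM values of the same 54532 genes, made from the counts, gene length and library size. Counts were used for all tests and FPKM for levels.

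Counts were fitted with edgeR 4.0.16 (limma 3.58.1, R 4.3.3) by TMM scaling, filterByExpr, glmQLFit and glmQLFTest, with Benjamini-Hochberg adjustment over all genes tested. There were 18 pairwise comparisons within a sex, each on its own groups, called at an adjusted p under 0.05 and an absolute log2 fold change above 1 as in the study. The 9 comparisons averaged over the sexes, their sex differences and 3 differences between oxygen levels came from 1 fit over the 34 libraries, with adjusted p under 0.05 for the differences. Standard errors are the fold change divided by the root of the F statistic. Scripts were tested on simulated data. The 10 genes, the lists and the tests were chosen with earlier results of these data known. Besides the 10 genes, Cav1, Xist and the Y-linked genes, the text names up to 3 genes of a list with the smallest adjusted p in a comparison averaged over the sexes, and the 5 protein-coding genes most like the members (Pearson r of log2 CPM, prior count 2). Nkx2-1 and Scgb1a1 are named outside this rule.

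As alternatives, DESeq2 1.42.0 (Wald test and size factors), no low-count filter, scaling factors without the members, limma on log2 FPKM with a pseudocount of 1 (filtered at a mean FPKM of 0.1 or unfiltered) or of 0.1, 1 fit over 34 libraries, a replicate block, the western blot list term, unlisted libraries only, adjusted p alone and each library left out were computed. Leaving out the 4 libraries in doubt over sex, and the libraries that carry the list term, was added after seeing the data. Replicate numbers were checked for pairing, and correlations of same-numbered deviations ran from -0.17 to 0.56 without exceeding 0.1 in every pair of a comparison with 3 pairs, so the numbers were not taken to pair mice. Replicates differed by 4.37 to 178 chi-square units per gene over 32 pairs, where sampling noise alone gives about 1, so each was counted as a library of its own. The groups are separate mice, and p-values measure the spread between these mice. 1 library of uncertain group was left out.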

Additional observations from a re-analysis of the deposited data

Results flagged for a closer look

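The genotype difference averaged over the sexes differed between hypoxia and normoxia, by edgeR's test of the difference itself, in 15 cases. For Cav1-KO against Control, the hypoxia minus normoxia log2 difference was -1.98 for Slc34a2, -1.77 for Abca3, -1.73 for Etv5, -1.17 for Lamp3, -0.93 for Sftpa1, -0.85 for Napsa, -0.79 for Sftpb and -0.64 for Sftpd. For Cav1-RC against Cav1-KO it was 2.23 for Slc34a2, 1.89 for Etv5, 1.52 for Abca3, 0.91 for Lamp3, 0.83 for Sftpb, 0.74 for Sftpa1 and 0.66 for Sftpd. Both sets share the Cav1-KO libraries, of which every hypoxic and no normoxic library is on the western blot list. With the list term 3 cases of the first set passed and none of the second. No sample of the 10 genes was tested as an outlier, since no group holds more than 3 libraries.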

How the results depend on the processing

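All counts here are of the 10 members called, 0 to 10 for each comparison. For the pairs, the fit with the western blot list term also replaced separate fits by 1 fit over 34 libraries, which without the term gave 20 in sum. With the term the pairwise calls went from 3 to 0 for Cav1-RC against Cav1-KO in female and in male hypoxia, from 2 to 0 for Cav1-RC against Control in male hypoxia, from 1 to 0 for hypoxia in male Control, and from 3 to 0 and 5 to 0 for hypoxia in female and male Cav1-KO, in sum from 19 to 2. Of these moves, the fit over 34 libraries without the term gave 1 for Cav1-RC against Control in male hypoxia and 0 for hypoxia in male Control. The share of all genes called fell as well. For Cav1-RC against Cav1-KO it went from 8.98% to 2.13% in female and from 14.8% to 2.19% in male hypoxia. For Cav1-RC against Control in male hypoxia it went from 9.9% to 0.337%. Averaged over the sexes and past both thresholds, the calls went from 1 to 0 for Cav1-KO against Control in normoxia and from 2 to 0 in hypoxia, from 3 to 0 for Cav1-RC against Cav1-KO in hypoxia, from 4 to 0 for hypoxia in Cav1-KO and from 0 to 1 for hypoxia in Control, in sum from 10 to 1. For Cav1-KO against Control in hypoxia the share of all genes called went from 5.36% to 3.65%. By adjusted p alone, genes higher in Cav1-RC than Cav1-KO in hypoxia went from 23.8% to 3.72%. Those lower in hypoxia in Cav1-KO went from 24.5% to 0.619%, and those higher in hypoxia in Control from 3.2% to 10.5%. Differences between oxygen levels went from 8 to 3 (Cav1-KO against Control), 7 to 0 (Cav1-RC against Cav1-KO) and 0 to 2 (Cav1-RC against Control), in sum from 15 to 5. In the members' direction the shares of all genes went from 13.2% to 2.95%, from 16.4% to 0.00503% and from 0.433% to 6.8%. The direction turned under this term for Slc34a2 in Cav1-RC against Cav1-KO in female hypoxia (-0.0901), for Abca3 and Lamp3 in the same contrast in male hypoxia (-0.11 and -0.0862), for Abca3, Slc34a2 and Etv5 in Cav1-RC against Control in male hypoxia (-0.24, -0.49 and -0.42), for Slc34a2 in hypoxia in male Control (0.54), for Sftpb and Lamp3 in hypoxia in female Cav1-KO (0.0822 and 0.14), for Lpcat1 in male Cav1-KO (0.00671), for Lamp3 in Cav1-RC against Cav1-KO in hypoxia over both sexes (-0.29), and for Abca3 and Lamp3 in the difference between oxygen levels of that contrast (-0.14 and -0.22). The cause was not tested.

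In the other fits the cause was not tested either. Without the low-count filter edgeR called 1 member for Cav1-KO against Control in female normoxia, 3 in female hypoxia and 1 for Cav1-RC against Cav1-KO in female normoxia, each from 0, where the share of all genes called was 2.42%, 3.3% and 3.2% (0.122%, 0.768% and 0.1% with the filter). DESeq2's Wald test called 4 in female and 0 in male hypoxia for Cav1-KO against Control (0 and 1 in edgeR), with 8.6% and 2.55% of all genes. By that test Napsa in males was at -0.9998 (adjusted p = 1.06e-08), just under the fold threshold. With DESeq2's size factors 0 were called in normoxia over both sexes (from 1). The 1 fit over 34 libraries called 4 for Cav1-KO against Control in female hypoxia (9.42% of all genes), 0 and 1 for Cav1-RC against Control in male normoxia and hypoxia (from 1 and 2), and 0 for hypoxia in male Control. All 3 limma fits on FPKM called 0 for Cav1-KO against Control in male hypoxia and 0 for hypoxia in male Control (from 1 each), and the unfiltered one 0 for Cav1-RC against Cav1-KO in female hypoxia. Of all genes, they called 0.051% (unfiltered) to 0.332% for Cav1-KO against Control in male hypoxia, where edgeR called 0.929%. The unfiltered fit called 1.81% for Cav1-RC against Cav1-KO in female hypoxia, where edgeR called 8.98%. A replicate block, although the numbers do not pair the mice, gave 2 for Cav1-KO against Control in female normoxia (5.48% of all genes), 0 in male hypoxia, 0 for hypoxia in male Control and 1 for its sex difference (Slc34a2, also the sum over sex differences), and moved no other count by over 1.5 times. Without the 4 libraries in doubt over sex, Cav1-RC against Cav1-KO in female hypoxia had 1 (4.6% of all genes), where fewer samples remain. Cav1-RC against Control in male normoxia then kept 1 Cav1-RC library, with Abca3 at 1.04. Cav1-KO against Control in normoxia over both sexes had 0, although no library of its own groups was left out. Unlisted libraries alone gave 1 for hypoxia in female Control. By adjusted p alone, male Cav1-KO against Control in normoxia had 1, male Cav1-RC against Cav1-KO had 1 in normoxia and 8 in hypoxia, hypoxia had 6 in female and 9 in male Cav1-KO (34 over all pairs), and over both sexes Cav1-KO against Control in hypoxia had 9, Cav1-RC against Cav1-KO 8 and hypoxia in Cav1-KO 8 (26 in sum).

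Leaving out 1 library at a time gave 0 to 6 for Cav1-KO against Control in female hypoxia (6 without female Control hypoxia replicate 1), 0 to 1 in male normoxia and male hypoxia, and 0 to 1 and 1 to 2 over both sexes in normoxia and hypoxia. For Cav1-RC against Cav1-KO it gave 0 to 3 in female hypoxia, 3 to 4 in male hypoxia and 3 over both sexes. In female normoxia each such fit leaves 1 library in a group, so its count is not given. Cav1-RC against Control had 0 to 1 in male normoxia, 2 in male hypoxia and 0 to 1 in normoxia over both sexes. Hypoxia had 0 to 1 in male Control, 3 in female and 4 to 5 in male Cav1-KO, and 3 to 4 over both sexes. Sex differences had 0 to 4 for Cav1-KO against Control and 0 to 6 for Cav1-RC against Control in hypoxia and 0 to 7 for hypoxia in Control (0 to 17 in sum), each highest without female Control hypoxia replicate 1. Differences between oxygen levels had 6 to 9 for Cav1-KO against Control and 4 to 8 for Cav1-RC against Cav1-KO (4 without female Cav1-RC normoxia replicate 1), 11 to 17 in sum, and comparisons over both sexes 7 to 11. Of single values, 465 kept direction and side of the threshold under an alternative, 93 kept direction only and 13 turned, and among those with a library left out 1488 and 104 did so and none turned. Among listed libraries only male Cav1-KO against Control in hypoxia had 2 or more in both groups, and there all libraries are listed, so no such fit was run apart. Female Cav1-KO against the 1 listed Control library in hypoxia was not fitted. Depth was 12425535 counts or more per library and 997 or more per member, and the effect of fewer reads was not tested.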

Other observations

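The library whose group the labels leave uncertain had 30930450 counts and Cav1 at 1.34 FPKM. Its label calls it possibly female Cav1-KO normoxia. Its animal is also on the western blot list, like 12 of the 34 others, and that list gives it as a normoxic female Cav1-KO. Its surfactant genes were listed at 12155 FPKM for Sftpc, 964 for Sftpb, 498 for Sftpa1, 145 for Sftpd, 102 for Lpcat1, 79.2 for Lamp3, 76.8 for Slc34a2, 55.7 for Napsa, 16.5 for Abca3 and 15.5 for Etv5. Of the 34 other libraries, 2 were lower for each of Sftpb, Sftpd, Slc34a2, Abca3 and Etv5, 3 for Sftpa1 and Napsa, 5 for Lamp3, 14 for Sftpc and 21 for Lpcat1. The lower libraries were all listed ones, except for Sftpc (5 of the 14 listed) and Lpcat1 (10 of the 21).

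Some genes of type 2 cells outside the 10 members differed between Cav1-RC and Control in normoxia. There edgeR called no member averaged over the sexes and 1, Abca3, in males. Averaged over the sexes, 5 of 15 other alveolar type 2 markers were higher and 1 lower by edgeR (median 0.24, against -0.01 over all genes), where 2.98% of all genes were higher and 2.21% lower, with Bex2 at 1.32 ± 0.21 (adjusted p = 0.000142), Lgi3 at 0.79 and Hc at 0.80. Pgc, a protease of the SP-B pathway, was higher by 1.73 ± 0.26 on the log2 scale (adjusted p = 6.75e-05, edgeR). With the list term 6 markers were higher and 1 lower, where 6.49% and 4.95% of all genes were. Without the libraries in doubt over sex, among them 2 of the 3 male Cav1-RC normoxia libraries, 2 were higher and 1 lower, where 1.54% and 1.13% of all genes were. Then Bex2 (1.39), Lgi3 (0.71) and Pgc (1.499) passed in edgeR, and Hc was at 0.68 (adjusted p = 0.0941, edgeR).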
